A study of Mus musculus with 12 samples.

Results

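N2a cells, a mouse neuroblastoma line, were given brain-derived extracellular vesicles of 1 of 2 kinds, and the direct comparison of the 2 kinds is described here: 4 libraries labelled SE-BDEV against 4 labelled CON-BDEV, that is 8 of the 12 libraries of the series. The remaining 4 libraries came from N2a cells given vehicle. In the title of the series, BDEV abbreviates brain-derived extracellular vesicle and the vesicles of interest are those of status epilepticus (SE), a seizure that does not stop by itself. CON is not spelled out in the labels. The 8 libraries were taken by their labels alone, and they share the cell line, polyadenylated RNA and a library kit that keeps the strand. Neither the vesicle dose nor the exposure time nor the donor animals are described in the sources used here. It is also not stated if replicates were independent cultures or vesicle isolates, and p-values below therefore measure only the spread between these libraries, which may be technical. The SE-BDEV and CON-BDEV libraries stood in separate tables that shared the Vehicle columns, and the ratio of those columns between the tables had a median within 0.0335% of 1 in each Vehicle library.

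Extracellular vesicles are membrane-bound particles that cells release and other cells can take up, and they carry lipids, proteins and RNA. Cells sense sterols through the SREBP transcription factors, which are held in the endoplasmic reticulum when sterols are plentiful and otherwise drive the genes of cholesterol synthesis and LDL uptake. Neuroblastoma cells derive from the sympathetic lineage and keep part of its noradrenergic programme. ATF4 is the transcription factor of the integrated stress response, which cells start when amino acids run short or proteins misfold, and CHOP (gene Ddit3), TRIB3 and CHAC1 are among its known targets.

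Libraries held roughly 12800000 to 15500000 fragments in the treated groups and 15000000 to 16500000 in Vehicle, as estimated from the lowest FPKM values. FPKM, the unit of all levels here, is the number of fragments divided by transcript length and library size. All 11 N2a markers were present in all 8 libraries, from Ddc at 1.88 to 2.27 FPKM to Tubb3 at 323.3 to 415.3 FPKM. Correlations of log2(FPKM + 1) across genes were 0.990 to 0.996 between libraries of one treated group and 0.992 to 0.996 between the groups, which describes the libraries and is no test.

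No gene was called between the 2 vesicle kinds. With limma on log2(FPKM + 1), 11328 genes whose mean over the 8 treated libraries reached 1 FPKM were tested, and 0 genes (0%) had a Benjamini-Hochberg adjusted p under 0.05. The smallest adjusted p was 0.969. At an unadjusted limma p under 0.05 there were 205 genes (1.81% of those tested), 95 higher in SE-BDEV (0.839%) and 110 lower (0.971%), where an even spread of p over all genes would put 5% of them. The 4 SE-BDEV libraries lay entirely above the 4 CON-BDEV libraries for 86 genes (0.759%) and entirely below them for 71 (0.627%), together 157 (1.39%). For such a gene the exact two-sided permutation test of the 8 libraries gives p = 0.0286, the smallest it can give. None of the 19 alternative settings called a gene either, but the number of genes at an unadjusted limma p under 0.05 was 575 (5.08%) without SE-BDEV replicate 2, 404 (3.57%) without replicate 2 of both groups, and 296 (2.61%) with all 12 libraries in the fit.

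**Figure D1:**
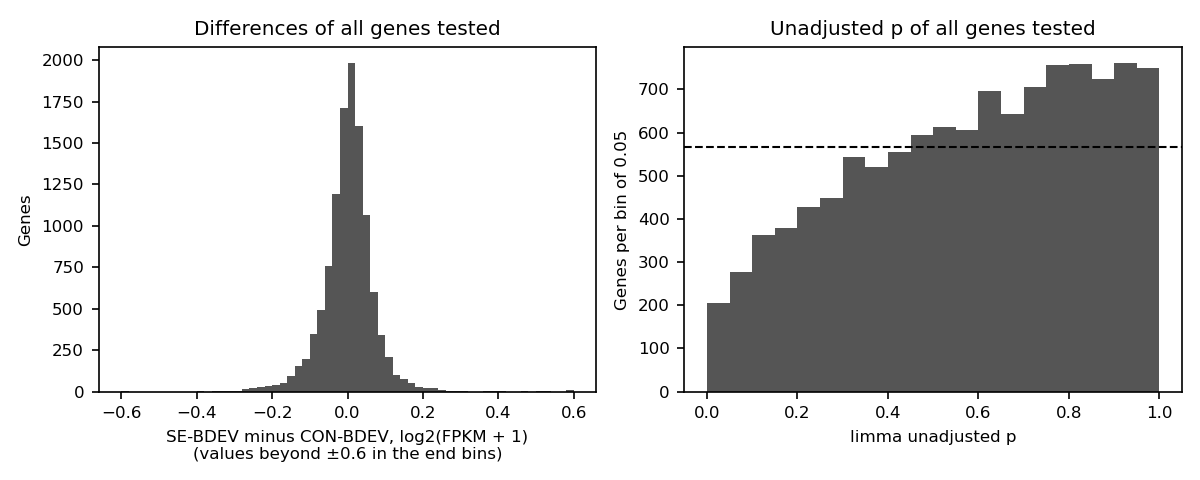
Left, number of genes (vertical axis) by their SE-BDEV minus CON-BDEV difference in log2(FPKM + 1) for the 11328 genes tested. Right, number of genes in each bin of the unadjusted limma p, with a dashed line at the 566 genes per bin of an even spread; the first bin, which holds the 205 genes under 0.05, is the lowest.

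The differences themselves were small for nearly all genes. The median absolute difference was 0.0332 on the log2(FPKM + 1) scale, or 2.32%, and the 95th percentile was 0.14, a 1.10-fold difference. On this scale the change of genes with low FPKM is understated. The 95% confidence interval of the difference lay within 1.2-fold in either direction for 9080 genes (80.2%), within 1.5-fold for 98.5% and within 2-fold for 99.7%. A missed threshold does not show that the 2 vesicle kinds act alike, and these intervals give the size of difference that the 4 libraries a group leave possible. Libraries of the groups were not equally spread: the median gene had an SD on the log2 scale of 0.0899 among SE-BDEV libraries, 0.0739 among CON-BDEV libraries and 0.0566 among Vehicle libraries, and 63.4% of genes had a larger SD in SE-BDEV than in CON-BDEV.

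On the log2(FPKM + 1) scale, a difference of at least 1.5-fold was seen for 12 genes and of at least 2-fold for 5 of these. For all 12 the groups overlapped. Genes with low FPKM can pass 1.5-fold in FPKM itself without being among the 12. Ppp1r14a, described below, is such a gene, with means of 2.41 FPKM in SE-BDEV and 1.42 FPKM in CON-BDEV and groups that did not overlap. The 12 were short or repeated genes for the most part: the histone H4 genes Hist1h4j, Hist1h4k and Hist1h4m, the short RNA genes Snora74a, Snora81 and Rmrp, the pseudogene Pisd-ps1, the predicted loci Gm1673 and LOC100504703, and Pet117, Scand1 and Wfdc15a. Pet117, an assembly factor of cytochrome c oxidase, was listed at 0, 0, 7.06 and 0 FPKM in SE-BDEV replicates 1 to 4 and at 6.50, 9.80, 1.54 and 10.1 FPKM in CON-BDEV. An exact 0 in these tables can be a failed estimate, as Hmgcs1, a gene of sterol synthesis that dividing cells use, was listed at 0 in all 12 libraries. Histone genes have near-identical copies, so their reads may be split between them. The smallest unadjusted limma p belonged to the predicted gene Gm5617, outside the rule for named genes (chr9:48303447-48304080, mm9), at 2.58, 2.39, 2.93 and 2.42 FPKM in SE-BDEV and 4.45, 3.90, 3.74 and 5.02 FPKM in CON-BDEV. Its difference was -0.56 (standard error 0.09, unadjusted limma p = 8.6e-05, exact permutation p = 0.0286, adjusted limma p = 0.969), and Vehicle stood at 2.37 ± 0.98 FPKM (SD, n = 4), beside the SE-BDEV level.

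A panel of genes with differences between vesicle-treated and Vehicle libraries overlapped in level between the 2 kinds. The panel of 20 genes was chosen from earlier results on these libraries and had 19 members above the filter, of which 15 differed from Vehicle in SE-BDEV and 16 in CON-BDEV in a limma fit of all 12 libraries (adjusted p under 0.05). Over all genes tested 1.5% and 1.17% did so, and the panel's counts follow from how it was chosen. All 19 had overlapping groups and, on the log2(FPKM + 1) scale, an SE-BDEV minus CON-BDEV interval within 1.5-fold. Their differences ran from -0.15 (Insig1) to 0.10 (Fam129a). Of all genes tested, only 1.39% had groups that did not overlap and 98.5% had an interval within 1.5-fold. The panel is therefore near the shares of all genes in both respects. The remaining member, the glycolysis gene Aldoc, was under the filter, with 0.905 ± 0.19 FPKM under SE-BDEV, 1.04 ± 0.21 under CON-BDEV and 1.72 ± 0.13 for Vehicle (SD, n = 4 each).

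**Figure D2:**
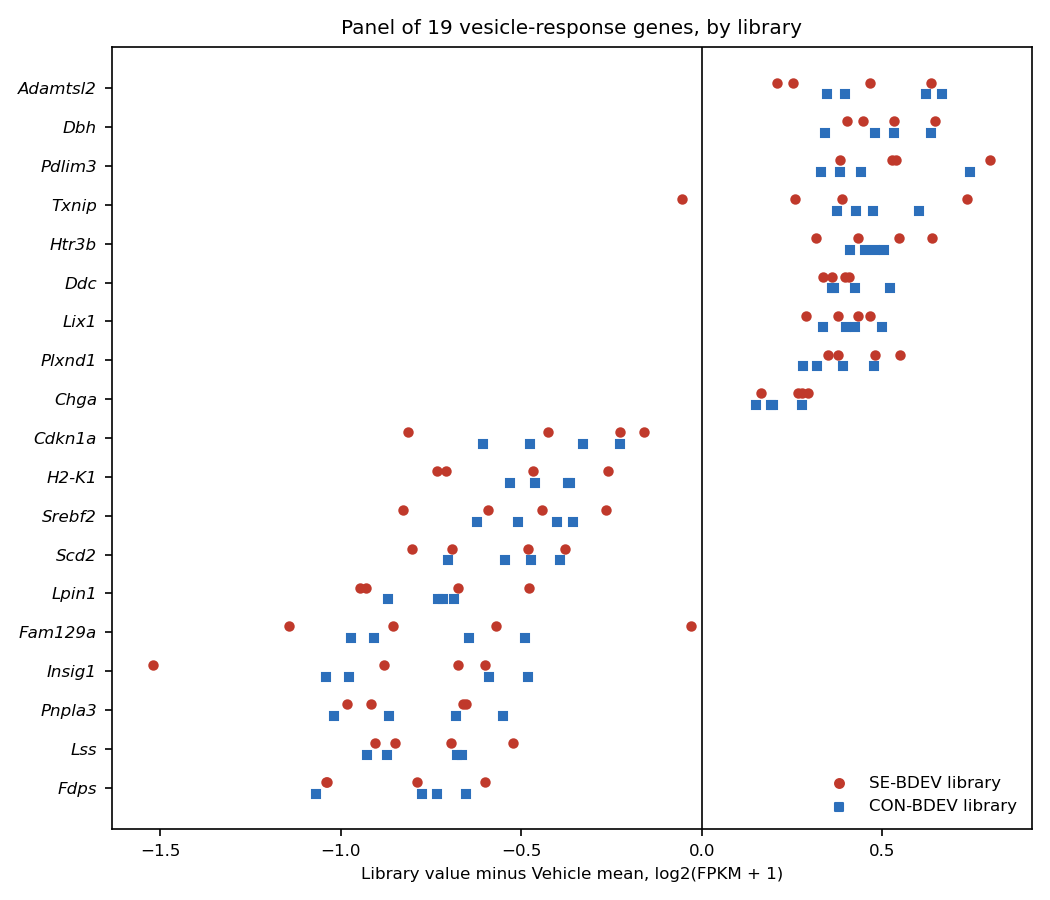
Each row is a gene of the panel, and each point a library's log2(FPKM + 1) minus the mean of the 4 Vehicle libraries (horizontal axis, 0 is the Vehicle mean), with circles for SE-BDEV and squares for CON-BDEV. Circles and squares overlap in all 19 rows, whose group differences run from -0.15 for Insig1 to 0.10 for Fam129a, and SE-BDEV replicate 2 is the leftmost point for Insig1.

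Fdps, the farnesyl diphosphate synthase of the mevalonate pathway (chr3:88897509-88905889, mm9), stood at 136.5, 114.6, 114.5 and 155.7 FPKM in SE-BDEV replicates 1 to 4. In CON-BDEV it stood at 137.8, 141.9, 150.1 and 112.3 FPKM, against 236.5 ± 6.87 FPKM in Vehicle (SD, n = 4). The highest and the lowest of the 8 values were thus 1 library of each kind, all 8 lay under the Vehicle libraries, and the SE-BDEV minus CON-BDEV difference was -0.06 (standard error 0.11, 95% interval -0.30 to 0.18). Insig1, the protein that holds SREBP in the endoplasmic reticulum and itself an SREBP target, was at 39.2, 21.4, 33.9 and 41.3 FPKM in SE-BDEV and 45.0, 31.6, 41.7 and 30.2 FPKM in CON-BDEV. Its difference of -0.15 (standard error 0.19, 95% interval -0.57 to 0.28) turned to 0.05 without SE-BDEV replicate 2, whose 21.4 FPKM is the lowest of the 8. Lss, lanosterol synthase, differed by 0.04 (standard error 0.09).

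Of the 27 genes listed for cholesterol synthesis and SREBP2 targets, 25 passed the filter; 5 were higher and 20 lower in SE-BDEV, 0 were called, and 0 had groups that did not overlap. Their median difference was -0.03, beside 0.01 over all genes tested, of which 54.3% were higher and 45.7% lower in SE-BDEV. The median turned to 0.04 without SE-BDEV replicate 2. As a mean over the 25 genes and relative to Vehicle, SE-BDEV replicates 1 to 4 stood at -0.45, -0.79, -0.64 and -0.34 and CON-BDEV replicates at -0.40, -0.58, -0.42 and -0.68, with an SD of 0.03 between Vehicle libraries. In every treated library 23 or 24 of the 25 genes were below all 4 Vehicle libraries. The ranges of both kinds overlapped, and most members shared an extreme library within a kind: SE-BDEV replicate 4 was the highest SE-BDEV library for 21 of the 25 genes, and CON-BDEV replicate 4 was the lowest CON-BDEV library for 19.

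Upstream sequence is shown for 2 of these genes because most of the list's members share an extreme library of each kind. It is the 250 bases before the RefSeq start of the gene (build GRCm38.p6), 5′ to 3′ on the gene's strand, and capitals mark CCAAT on either strand, the box that NF-Y binds and that often accompanies SREBP sites. Of 18 list members with a sequence, 17 held CCAAT (94.4%), beside 37.5% of all 27025 genes with a sequence, which describes the letters only and was not set against the expression values.
Insig1 (chr5:28071162-28071411, forward strand): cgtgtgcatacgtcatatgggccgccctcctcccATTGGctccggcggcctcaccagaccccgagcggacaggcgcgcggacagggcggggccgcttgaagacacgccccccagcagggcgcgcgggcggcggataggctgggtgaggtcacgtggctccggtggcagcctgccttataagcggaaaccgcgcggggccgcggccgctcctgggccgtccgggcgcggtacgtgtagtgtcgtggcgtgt
Lss (chr10:76531355-76531604, forward strand): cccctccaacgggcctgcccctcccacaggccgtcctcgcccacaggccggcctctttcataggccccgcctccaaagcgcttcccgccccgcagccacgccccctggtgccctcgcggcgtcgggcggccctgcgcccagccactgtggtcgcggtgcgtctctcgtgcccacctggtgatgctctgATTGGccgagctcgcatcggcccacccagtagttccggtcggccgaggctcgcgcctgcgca

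Genes of fatty acid synthesis and SREBP1 targets gave a like picture, with 24 tested, 7 higher and 17 lower in SE-BDEV, and a median difference of -0.02. List means relative to Vehicle ran from -0.40 to -0.21 in SE-BDEV and from -0.35 to -0.24 in CON-BDEV, so the groups overlapped. Agpat2, which makes phosphatidic acid, had the smallest p of the list: 12.4, 11.4, 12.2 and 13.6 FPKM in SE-BDEV against 9.39, 11.97, 10.7 and 11.7 FPKM in CON-BDEV (difference 0.17, standard error 0.08, unadjusted limma p = 0.0446, exact permutation p = 0.0857, adjusted limma p = 0.9998). Genes of cholesterol efflux and LXR targets had a median of 0.00 over 13 genes, 7 higher and 6 lower, and no treated library was further than 0.05 from Vehicle in the list mean.

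The noradrenergic genes, higher under both vesicle kinds than in Vehicle, also overlapped. Dbh, the enzyme that makes noradrenaline, was at 6.25, 6.95, 7.59 and 6.48 FPKM in SE-BDEV and 5.96, 6.94, 6.66 and 7.53 FPKM in CON-BDEV, against 4.50 ± 0.42 in Vehicle (SD, n = 4). The difference between the kinds was 0.01 (standard error 0.08, 95% interval -0.16 to 0.18). In a limma fit of all 12 libraries, SE-BDEV lay above Vehicle by 0.51 and CON-BDEV by 0.50, both past the adjusted threshold. Those 2 differences share the Vehicle libraries. Ddc, which makes dopamine, differed by -0.04 (standard error 0.07) between the kinds and Chga, a protein of secretory granules, by 0.05 (standard error 0.04). Over the 41 tested genes of noradrenergic and neuronal differentiation, 21 were higher and 20 lower in SE-BDEV, with a median of 0.00.

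The genes with the smallest p among those eligible under the naming rule are given with their values, although none of them was called. Alg14, a subunit of the enzyme that adds the second sugar of the N-glycan precursor (chr3:120994734-121064929, mm9), stood at 23.5, 23.4, 23.7 and 24.8 FPKM in SE-BDEV and at 16.97, 19.7, 19.96 and 20.1 FPKM in CON-BDEV. All 4 SE-BDEV libraries lay above all CON-BDEV and all 4 Vehicle libraries (20.1 ± 0.94 FPKM, SD, n = 4). The difference was 0.30 (standard error 0.06, 1.23-fold, unadjusted limma p = 0.000271, exact permutation p = 0.0286, adjusted limma p = 0.9998). Clybl, a mitochondrial enzyme of citramalyl-CoA breakdown, had 6.85 to 8.30 FPKM in SE-BDEV against 5.59 to 6.43 in CON-BDEV and 5.82 ± 0.27 in Vehicle, a difference of 0.26 (standard error 0.07). Rhox2f, a reproductive homeobox gene with near-identical neighbours, whose value is therefore uncertain, had 43.5 to 48.2 FPKM under SE-BDEV, 40.1 to 41.9 under CON-BDEV and 41.6 ± 1.61 for Vehicle. For these 3 genes the CON-BDEV mean was close to that of Vehicle and the SE-BDEV mean was higher.

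Lgals9 and Ppp1r14a had the opposite order, with the SE-BDEV mean near Vehicle and the CON-BDEV mean below it. Lgals9, which codes for galectin-9, was at 10.04, 9.26, 10.5 and 10.2 FPKM in SE-BDEV and 8.79, 8.72, 8.80 and 7.64 FPKM in CON-BDEV, with 10.6 ± 0.80 in Vehicle (SD, n = 4; difference between kinds 0.22, standard error 0.06). Ppp1r14a, an inhibitor of myosin phosphatase, was at 3.40, 2.57, 1.93 and 1.74 FPKM in SE-BDEV and between 1.31 and 1.51 FPKM in CON-BDEV, with 2.10 ± 0.44 in Vehicle. Pcca, a subunit of propionyl-CoA carboxylase, had 9.04 to 10.6 FPKM against 8.35 to 8.90, with Vehicle between them at 9.52 ± 0.15. Cib1, a calcium-binding partner of integrins, had 19.1 to 20.2 FPKM against 16.6 to 18.02 FPKM. Ift20, of intraflagellar transport, is the one of these 8 genes with overlapping groups, at 30.5 to 36.8 FPKM against 28.8 to 30.5 FPKM. Car15, Gipc2, Fam161a and Murc were further genes with larger differences (0.22 to 0.38) whose SE-BDEV libraries were all above the CON-BDEV libraries.

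The 8 named genes with the smallest p among those lower in SE-BDEV were not called either. Ndufa12, a subunit of respiratory complex I, stood at 307.2, 306.0, 337.7 and 330.0 FPKM in SE-BDEV and 365.7, 344.8, 348.9 and 361.2 FPKM in CON-BDEV, with 349 ± 9.73 FPKM in Vehicle (SD, n = 4). The difference was -0.15 (standard error 0.04, unadjusted limma p = 0.00423, exact permutation p = 0.0286, adjusted limma p = 0.9998). Tomm7, of the mitochondrial import pore, had 33.4 to 35.6 FPKM against 36.4 to 39.8 FPKM. Myeov2, now known as a subunit of the COP9 signalosome, had 99.0 to 114 FPKM against 118 to 123 FPKM, and Gemin7, of the SMN complex that assembles spliceosomal particles, 12.2 to 13.4 against 14.4 to 14.9 FPKM. Vehicle was at 112 ± 7.57 and 15.9 ± 2.85 FPKM for the last 2 genes. For Gemin7 that SD was wider than the difference between the kinds. Ptges3l, Nat6, Prelid2 and Tmem261 made up the 8, with overlapping groups for Prelid2 and Tmem261. Itgbl1, Phf11c, Jmjd7, Rph3al, Sct and Ap4m1 had differences of -0.30 to -0.22 and groups that did not overlap.

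**Figure D3:**
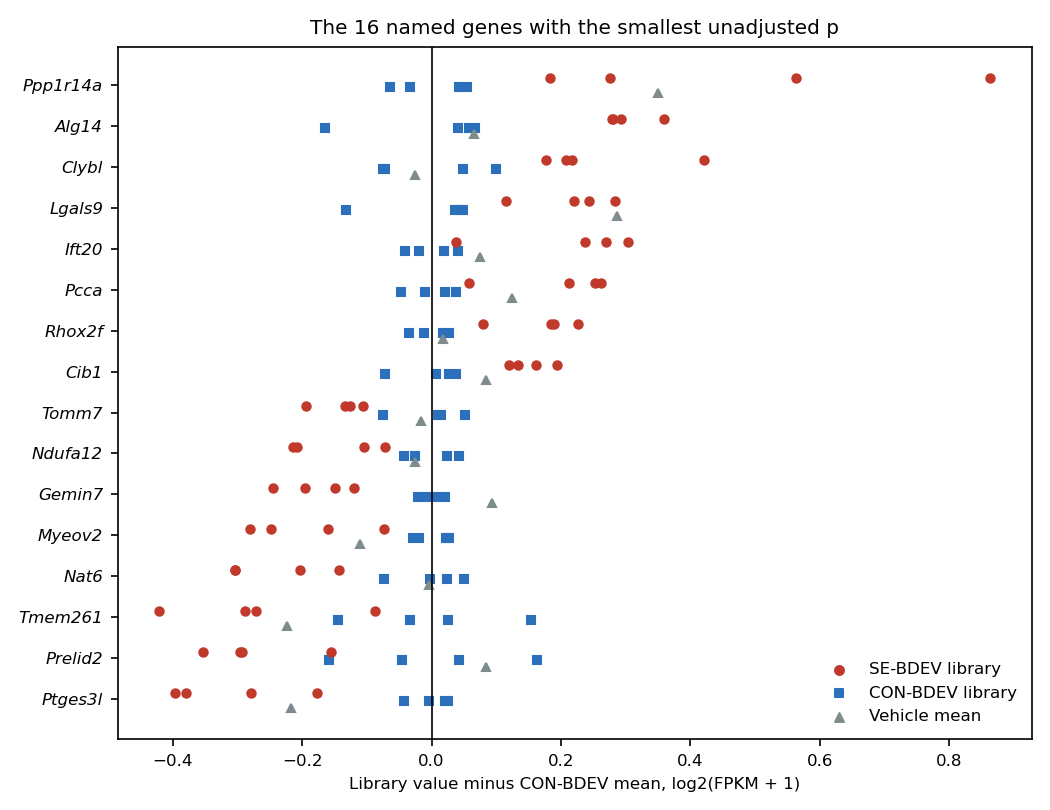
Each row is 1 of the 16 genes with the smallest unadjusted limma p among those eligible under the naming rule, 8 in each direction. Each point is a library's log2(FPKM + 1) minus the CON-BDEV mean (horizontal axis), with circles for SE-BDEV, squares for CON-BDEV and a triangle for the Vehicle mean. Circles stand apart from squares in 13 rows, and the triangle lies near the squares for Alg14 and Clybl and near the circles for Lgals9.

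The leading axis of variation among the treated libraries did not separate the kinds of vesicle. On a principal component analysis of the 8 libraries the first component held 30.8% of the variance, with SE-BDEV replicate 2 (13.7) and CON-BDEV replicate 2 (8.14) at one end and SE-BDEV replicate 3 (-11.7) at the other. Genes of the ATF4 amino acid response had the widest range of list means among the 27 lists described: list means relative to Vehicle were -0.24, 0.26, -0.34 and -0.08 in SE-BDEV replicates 1 to 4 and -0.30, 0.14, -0.03 and -0.00 in CON-BDEV. These list means had an SD of 0.26 among SE-BDEV libraries, 0.18 among CON-BDEV libraries and 0.02 among Vehicle libraries. SE-BDEV replicate 2 was the highest SE-BDEV library for all 40 members tested, and CON-BDEV replicate 2 the highest CON-BDEV library for 36 of them. Of the 40, 33 lay above every Vehicle library in SE-BDEV replicate 2 and 23 in CON-BDEV replicate 2, while 38 lay below every Vehicle library in SE-BDEV replicates 1 and 3 and all 40 did in CON-BDEV replicate 1. Each kind thus had libraries on both sides of Vehicle, and between the kinds 11 members were higher and 29 lower in SE-BDEV with a median of -0.03, or -0.12 without SE-BDEV replicate 2 and -0.07 without replicate 2 of both groups. No member was called.

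The following genes of the response were chosen after their values were seen, and are shown for how the libraries differ. Ddit3, the pro-apoptotic factor CHOP, stood at 101.8, 301.0, 78.7 and 142.8 FPKM in SE-BDEV replicates 1 to 4 and 90.6, 250.9, 160.8 and 173.4 FPKM in CON-BDEV, against 145.3 to 191.5 FPKM in the 4 Vehicle libraries. Replicate 2 was the highest library of both kinds and lay above all of Vehicle. The difference between the kinds was -0.22 (standard error 0.39, 95% interval -1.08 to 0.65), an interval that leaves a 2-fold difference possible. Trib3, a pseudokinase that acts back on the response, was at 48.8, 139.8, 40.5 and 67.0 FPKM in SE-BDEV and 43.9, 114.7, 79.5 and 82.5 FPKM in CON-BDEV, against 68.8 to 76.8 in Vehicle. Chac1, which breaks down glutathione, was at 58.0, 109.7, 45.2 and 74.9 FPKM in SE-BDEV and 49.5, 103.2, 91.2 and 91.7 FPKM in CON-BDEV, against 63.2 to 67.0 in Vehicle. Atf3, a partner transcription factor, spanned 3.96 to 21.5 FPKM in SE-BDEV and 5.19 to 16.9 FPKM in CON-BDEV against 7.88 to 9.93 in Vehicle. The lowest CON-BDEV library was replicate 1 for all 4 genes, and the lowest SE-BDEV library was replicate 3.

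**Figure D4:**
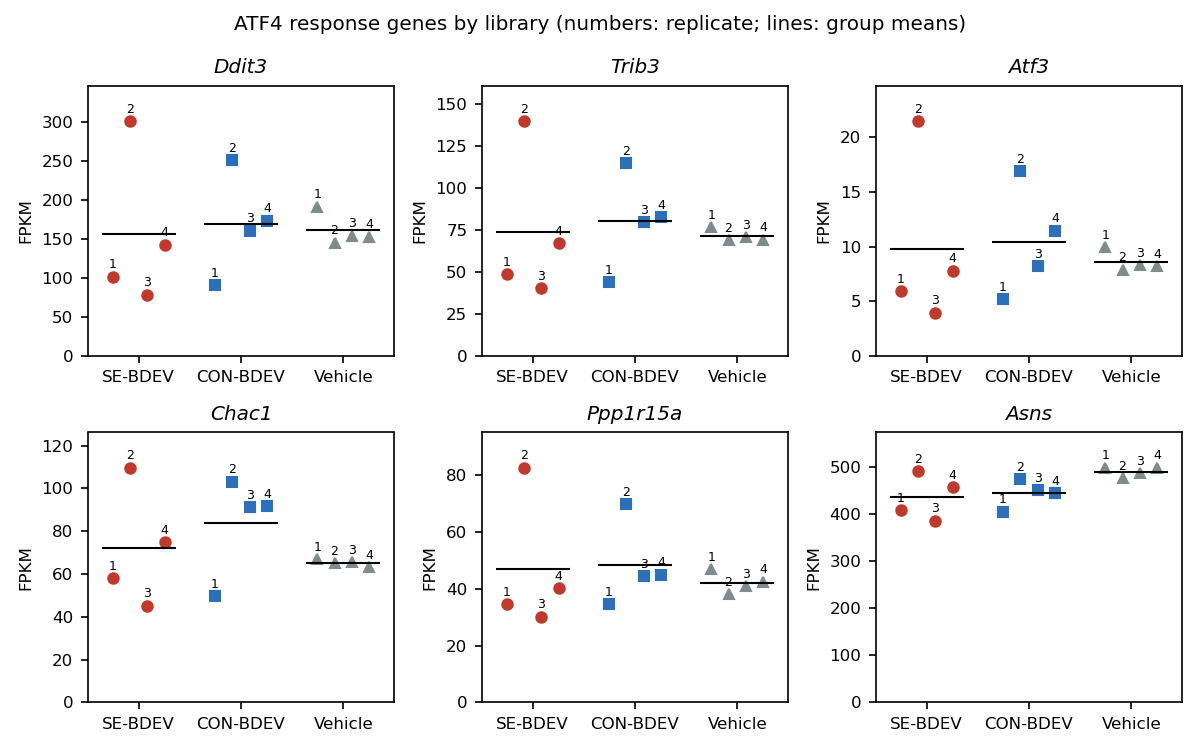
Levels in FPKM (vertical axis, from 0) of 6 genes of the ATF4 response in each library, with the replicate number above each point and a line at each group mean. Replicate 2 is the highest point of the SE-BDEV and of the CON-BDEV group in all 6 panels (301.0 and 250.9 FPKM for Ddit3), and the Vehicle libraries lie close together.

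Slc7a11, the cystine importer, was likewise highest in replicate 2 of both kinds and lowest in SE-BDEV replicate 3 and CON-BDEV replicate 1, at 4.01, 9.82, 3.93 and 6.14 FPKM in SE-BDEV and 3.80, 8.24, 7.51 and 6.99 FPKM in CON-BDEV. Asns, asparagine synthetase, had the same highest and lowest libraries, with 407.5, 490.8, 385.0 and 456.1 FPKM in SE-BDEV and 404.1, 473.4, 449.9 and 444.1 FPKM in CON-BDEV. Upstream sequences of 3 of these genes are shown because most members of the list share their highest library of each kind. They are drawn as above, with capitals for TGATGNAA on either strand, the core of the element bound by ATF4 with a C/EBP partner. Of 32 list members with a sequence, 8 held it (25%), beside 3.91% of all genes with a sequence. A match describes the letters and is not evidence of binding.
Chac1 (chr2:119350992-119351241, forward strand): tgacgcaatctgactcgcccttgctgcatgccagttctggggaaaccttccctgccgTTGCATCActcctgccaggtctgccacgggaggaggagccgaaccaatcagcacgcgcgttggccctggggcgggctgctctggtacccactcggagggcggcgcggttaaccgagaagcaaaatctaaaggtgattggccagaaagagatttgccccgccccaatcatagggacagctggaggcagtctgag
Asns (chr6:7693210-7693459, reverse strand): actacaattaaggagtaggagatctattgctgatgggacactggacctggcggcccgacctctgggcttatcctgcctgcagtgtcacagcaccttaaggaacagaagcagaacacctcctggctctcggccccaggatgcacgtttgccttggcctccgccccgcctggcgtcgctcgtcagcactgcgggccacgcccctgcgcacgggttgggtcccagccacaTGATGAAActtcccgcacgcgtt
Slc7a11 (chr3:50443614-50443863, reverse strand): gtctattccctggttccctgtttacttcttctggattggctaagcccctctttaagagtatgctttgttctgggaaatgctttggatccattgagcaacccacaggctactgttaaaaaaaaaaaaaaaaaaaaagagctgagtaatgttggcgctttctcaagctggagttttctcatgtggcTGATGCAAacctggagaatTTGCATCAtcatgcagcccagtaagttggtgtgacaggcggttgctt

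Genes lowest in replicate 2 were found among chaperones, mitosis and iron uptake, also chosen after their values were seen. Hspa8, the constitutive HSP70 chaperone, was lowest in replicate 2 of both kinds, at 1361 FPKM against 2179 to 2323 in the other SE-BDEV libraries and at 1746 against 1968 to 2256 FPKM in the other CON-BDEV libraries. The Vehicle libraries spanned 2087 to 2133 FPKM. Tfrc, the transferrin receptor, was at 43.8, 21.5, 50.2 and 36.2 FPKM in SE-BDEV and 43.6, 26.1, 33.7 and 35.8 FPKM in CON-BDEV. Over the 62 genes of G2/M and mitosis, list means relative to Vehicle were 0.01, -0.17, 0.03 and 0.02 in SE-BDEV and 0.04, -0.11, -0.03 and -0.05 in CON-BDEV. SE-BDEV replicate 2 was the lowest SE-BDEV library for 54 of the 62 and CON-BDEV replicate 2 the lowest CON-BDEV library for 40. Between the kinds 40 members were higher and 22 lower in SE-BDEV, with a median of 0.01, or 0.06 without SE-BDEV replicate 2. The lowest SE-BDEV library was also replicate 2 for 31 of 56 nuclear oxidative phosphorylation genes and 18 of 30 synaptic vesicle genes, but for 16 of 79 ribosomal protein genes. Over all genes tested it deviated most from its group mean among the treated libraries (root mean square 0.152 in log2). How often a library was the extreme of its group was counted within lists only, here and above, with no share over all genes tested.

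**Figure D5:**
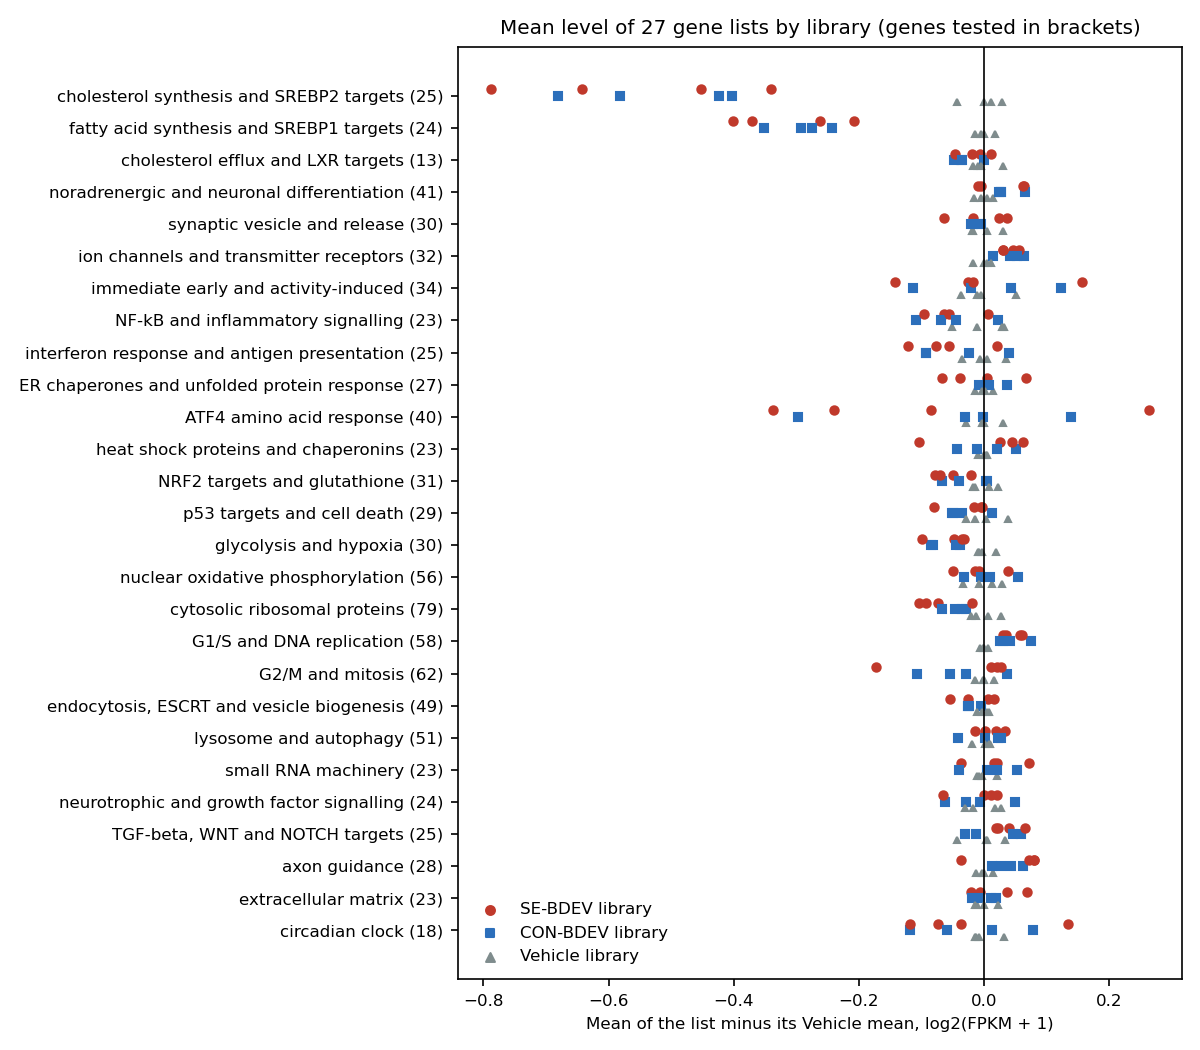
Each row is a gene list with its number of tested genes, and each point a library's mean over the list relative to the Vehicle mean in log2(FPKM + 1) (horizontal axis), with circles for SE-BDEV, squares for CON-BDEV and triangles for Vehicle. Circles and squares overlap in all 27 rows, both lie below Vehicle for the cholesterol and fatty acid lists, and the ATF4 row has the widest range across 0, from -0.34 to 0.26.

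All 27 lists had overlapping group means, and 0 of their genes were called. The lists that bear on excitation and on vesicle uptake had medians near that of all genes, 0.01. Immediate early and activity-induced genes (34 tested) had 15 higher and 19 lower in SE-BDEV, a median of -0.02, and list means of -0.03, 0.16, -0.14 and -0.02 in SE-BDEV against -0.11, 0.12, -0.02 and 0.04 in CON-BDEV, the same order as for ATF4. Fos, an immediate early transcription factor, was at 3.91, 5.10, 3.66 and 4.53 FPKM in SE-BDEV and 3.23, 4.50, 3.92 and 4.45 FPKM in CON-BDEV, and Arc, a synaptic gene induced by activity, at 17.1 to 18.1 against 15.99 to 18.2 FPKM. Synaptic vesicle genes (30 tested, 17 higher, 13 lower) had a median of 0.01 and ion channel and receptor genes (32 tested, 18 higher, 14 lower) one of 0.00. Rims2, of the presynaptic active zone, had the smallest p of the synaptic list, at 18.2 to 20.2 FPKM in SE-BDEV against 17.4 to 18.9 in CON-BDEV (difference 0.11, standard error 0.05, unadjusted limma p = 0.0468, exact permutation p = 0.0571). Genes of endocytosis, ESCRT and vesicle biogenesis (49 tested, 28 higher, 21 lower) and of the small RNA machinery (23 tested, 13 higher, 10 lower) both had medians of 0.00. Chmp2a, an ESCRT-III subunit, was at 65.0 to 80.6 FPKM in SE-BDEV and 75.8 to 83.7 FPKM in CON-BDEV (difference -0.13, standard error 0.06).

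Inflammatory lists were equally close for the members above the filter. NF-kB genes (23 tested of 43 listed, 12 higher, 11 lower) had a median of 0.00. Interferon and antigen presentation genes (25 tested of 40 listed, 12 higher, 13 lower) had one of -0.01. Members under the filter, which these medians leave out, included Tnf, Il1b, Ccl2, Cxcl10, Ifit1 and Irf7. H2-K1, a class I histocompatibility gene lower under both kinds than in Vehicle, was at 40.2, 33.9, 33.3 and 46.6 FPKM in SE-BDEV and 40.4, 43.3, 43.1 and 38.5 FPKM in CON-BDEV, against 56.0 ± 2.14 in Vehicle (SD, n = 4). Of 79 cytosolic ribosomal protein genes 21 were higher and 58 lower with a median of -0.02, where 45.7% of all genes tested were lower. At an unadjusted limma p under 0.05, 3 were lower, beside 0.971% of all genes, and 2 had SE-BDEV entirely below CON-BDEV, beside 0.627%. Rps28 was at 1377, 1492, 1457 and 1455 FPKM in SE-BDEV against 1531, 1628, 1576 and 1519 in CON-BDEV and 1503 to 1759 in Vehicle (difference -0.11, standard error 0.04, 7.54% lower). Ribosomal protein genes have processed pseudogenes that can take part of their reads. NRF2 targets (31 tested) were higher for 8 and lower for 23 with a median of -0.02. Gstm1, a glutathione transferase with near-identical family members, had the smallest p among the members eligible under the naming rule, at 14.5 to 18 FPKM against 16.1 to 19.5 FPKM. Of the 56 genes listed for nuclear oxidative phosphorylation, 22 were higher and 34 lower, with a median of -0.01. Ndufa12, described above, is not on that list. Atp5g2, of the ATP synthase ring, was at 465 to 471 FPKM in SE-BDEV and at 484 to 510 in CON-BDEV (difference -0.08, standard error 0.03).

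Markers of other cell types of the brain were below 0.1 FPKM in all 8 treated libraries for part of each list, among them 6 of 12 for forebrain neurons, 6 of 10 for oligodendrocytes, 4 of 10 for endothelium and pericytes and 3 of 6 for choroid plexus. Of 11 microglial markers 9 were below 0.1 FPKM in all 8, and 4 of these at 0, and the summed level of the 11 was 1.94 to 1.98 FPKM under SE-BDEV, 1.89 to 2.46 under CON-BDEV and 1.41 to 2.14 for Vehicle, most of it Tmem119. Of 9 astrocyte markers 5 were below 0.1 FPKM, and the sum of 40.6 to 49.2 FPKM in SE-BDEV and 43.6 to 48.8 in CON-BDEV was nearly all Glul, glutamine synthetase, at 45.6 ± 4.07 and 45.4 ± 2.36 FPKM (SD, n = 4 each), which many cells express. Forebrain neuron markers summed to 12.2 to 14.5 FPKM in SE-BDEV and 11.98 to 14.01 in CON-BDEV, with Camk2a as the highest member and Neurod6 at 0 in all. Oligodendrocyte markers summed to 16.8 to 19.9 FPKM in SE-BDEV and 16.96 to 18.7 in CON-BDEV, mostly Cnp and Mbp, with Olig1 and Opalin at 0. Red blood cell markers summed to at most 0.33 FPKM. In these bulk libraries fewer cells of a type and less RNA per cell cannot be told apart, nor can RNA carried by vesicles and RNA made by the N2a cells.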

How the data were processed

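RNA-seq of 12 N2a libraries was analysed, 4 labelled SE-BDEV, 4 CON-BDEV and 4 Vehicle by their titles. The authors deposited FPKM per gene and library, made with TopHat2 and Cuffdiff on mm9, per the submitters' processing notes (versions not listed). Their annotation, strand setting and read filters were not given in the sources used here. One deposited table held the SE-BDEV and the other the CON-BDEV libraries, each with the same Vehicle libraries, over 24318 gene rows, 100 with several names. The tables were joined by gene row, and no column of per-sample values was left unmapped (0). Genes whose mean reached 1 FPKM in the treated libraries were tested with limma 3.58.1 (R 4.3.3) on log2(FPKM + 1) (2 groups, moderated with a mean-variance trend, two-sided), with Benjamini-Hochberg adjustment over all genes and a threshold of 0.05, after a check on simulated data. A fit of all 12 libraries gave differences from Vehicle.

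Library totals are not given, so depth was estimated by taking the lowest FPKM values of genes as 1 fragment, with transcript lengths from a newer annotation, and is approximate. Gene lists and the panel, and the genes compared, were chosen with earlier results of these data known; some genes are not reported here, and the panel is given without them. Named are the 8 genes with the smallest unadjusted p in each direction, the member of each list with the smallest p, and the panel. Also named are up to 8 in each direction with the largest difference among non-overlapping genes at an unadjusted p under 0.05. Entries with several names, short RNA genes and predicted loci were left out. Exceptions are where the text says so or lists all 12 genes past 1.5-fold on the log2(FPKM + 1) scale. Fos, Arc, Gfap and the ATF4, chaperone and mitosis genes shown per library were chosen after their values were seen. Alternatives changed the pseudocount, filter, scaling, weights, variance prior, libraries in the fit and replicate block. Upstream sequences came from RefSeq (GRCm38.p6), whose coordinates are not those of mm9.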

Additional observations from a re-analysis of the deposited data

Results flagged for a closer look

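Of 232 groups of 4 libraries checked for a value that stands apart (a wide gap to the nearest library relative to the group's range), 10 did, 4.31%. Chance alone flags about 1 in 20 groups. Some of the genes checked, such as Hspa8 and Chac1, were chosen after their values were seen, so the 4.31% cannot be set against that rate. In SE-BDEV replicate 2, Hspa8 was low at 1361 FPKM (others 2179 to 2323), the G2/M and mitosis list mean was low at -0.17 relative to Vehicle in log2 (others 0.01 to 0.03), and the axon guidance list mean was low at -0.037 (others 0.07 to 0.08). CON-BDEV replicate 1 was low for Chac1 at 49.5 FPKM (others 91.2 to 103.2) and for Alg14 at 16.97 FPKM (others 19.7 to 20.1). The same library was high for the noradrenergic and neuronal differentiation list at 0.0662 (others 0.02 to 0.03) and for the endocytosis, ESCRT and vesicle biogenesis list at -0.0042 (others -0.03 to -0.02). Clybl was high in SE-BDEV replicate 4 at 8.30 FPKM (others 6.85 to 7.07), Hspe1, a mitochondrial chaperonin, was high in SE-BDEV replicate 3 at 327.3 FPKM (others 297.8 to 300.2), and Lgals9 was low in CON-BDEV replicate 4 at 7.64 FPKM (others 8.72 to 8.80).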

How the results depend on the processing

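No gene was called under any of the 19 alternatives, 1 of which was added after seeing the data (without replicate 2 of both groups), and the smallest adjusted limma p of an alternative ranged from 0.134 to 1. Genes at an unadjusted limma p under 0.05 (205; 95 higher and 110 lower in SE-BDEV) numbered 460 (220 and 240) with no filter, which tests 17377 genes, 485 (265 and 220) with 1 weight per library (arrayWeights), and 404 (205 and 199) without replicate 2 of both groups. Leaving out 1 library gave 176 to 575 (70 to 319 higher, 89 to 256 lower), the highest without SE-BDEV replicate 2, where 319 were higher and 256 lower; the cause was not tested. The list of cholesterol efflux and LXR targets moved from a median of 0.00 to 0.033 without replicate 2 of both groups.

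With the replicate number as a block, which pairs neighbouring library numbers, 0 genes were called and 263 (2.32%) had an unadjusted limma p under 0.05, 114 higher and 149 lower; its smallest adjusted limma p, 0.134, was that of Hist1h4k, a histone gene with near-identical copies. Deviations of same-numbered libraries from their group means correlated across genes at 0.20, 0.30, -0.07 and -0.12 for numbers 1 to 4, so the numbers are not shown to pair the libraries.

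Of 89 named genes, 65 kept their direction under all 19 alternatives and 24 did not. The SE-BDEV minus CON-BDEV differences of these 24 with libraries left out were Asns -0.0907 to 0.0257, Atf3 -0.661 to 0.0658, Cdkn1a -0.0795 to 0.139, Ciart -0.35 to 0.0675, Dbh -0.043 to 0.0547, Ddit3 -0.597 to 0.044, Fam129a -0.102 to 0.269, Fdps -0.149 to 0.0223, Glul -0.0288 to 0.0669, Hspa8 -0.0987 to 0.158, Htr3b -0.0292 to 0.0776, Insig1 -0.253 to 0.0529. For the others they were Kif20a -0.0507 to 0.172, Lix1 -0.0505 to 0.00995, Lpin1 -0.1002 to 0.0562, Lss -0.0313 to 0.0962, Pecam1 -0.138 to 0.0277, Pnpla3 -0.105 to 0.0509, Ppp1r15a -0.42 to 0.0739, Scd2 -0.13 to 0.0115, Srebf2 -0.149 to 0.039, Tfrc -0.0761 to 0.32, Tmem119 -0.129 to 0.013, Trib3 -0.565 to 0.0225. Library weights turned the sign for Fdps (0.00267), Srebf2 (0.0152), Lpin1 (0.0684), Pnpla3 (0.0267), Dbh (-0.0305), Hspa8 (0.0657) and Pecam1 (0.0413), median scaling for Glul (-0.00165) and Cdkn1a (-0.00102), and quantile normalization for Glul (-0.000786) and Asns (1.6e-05).

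Depth is known only approximately, and 4 libraries a group with the spread seen among the treated libraries limit what the ATF4 genes can show: the interval for Ddit3 spans -1.08 to 0.65.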

Other observations

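Gfap, the intermediate filament of astrocytes, was far under the filter and was chosen after its values were seen. It was at 0.05, 0.13, 0.06 and 0.07 FPKM in SE-BDEV replicates 1 to 4, at 0.03, 0, 0.03 and 0 FPKM in CON-BDEV, and at 0, 0, 0 and 0.03 FPKM in Vehicle. The 4 SE-BDEV libraries lay above all CON-BDEV and Vehicle libraries, at levels that stand for few fragments, so the values carry a large counting error. Of 6049 genes under the filter with a value above 0 in at least 1 treated library, 38 (0.628%) had all SE-BDEV libraries above all CON-BDEV libraries and 36 (0.595%) had them all below. Among the other astrocyte markers, Gja1 and Gjb6 were at 0 in all 8 treated libraries, and Aldh1l1 was at 0.78 ± 0.09 FPKM in SE-BDEV and 0.69 ± 0.11 in CON-BDEV, under the 1.03 ± 0.07 of Vehicle (SD, n = 4 each).

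Circadian clock genes (18 tested) had list means of -0.07, 0.13, -0.12 and -0.04 in SE-BDEV and -0.12, 0.08, -0.06 and 0.01 in CON-BDEV relative to Vehicle. Replicate 2 was again the highest library of both kinds, as for the ATF4 genes. The list had a median difference of 0.02 and a difference of group means with the opposite sign. Nr1d1, a repressor of the clock, had the smallest p of the list, at 13.0, 12.1, 13.8 and 14.2 FPKM in SE-BDEV and 11.6, 11.6, 11.2 and 12.8 FPKM in CON-BDEV (difference 0.15, standard error 0.06, unadjusted limma p = 0.0293, exact permutation p = 0.0571). Ciart, a clock repressor chosen after its values were seen, was at 5.30, 13.2, 5.47 and 6.55 FPKM in SE-BDEV and 4.49, 10.7, 7.96 and 8.52 FPKM in CON-BDEV.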
